A study of Mus musculus with 8 samples.

Results

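Expression of 10 genes of the unfolded protein response was followed in mouse lung after mepenzolate or vehicle. The genes were listed by name (Hspa5, Ddit3, Atf4, Xbp1, Herpud1, Sdf2l1, Dnajb9, Creld2, Manf and Hyou1), and all 10 were found among the 19937 genes with a probe set of exactly 1 symbol. Each of them had 1 such probe set, and all 10 were among the 14953 genes bright enough to be tested.

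Whole lung RNA was measured on Affymetrix gene arrays in 4 groups of 2 arrays each. The groups were vehicle at 7 h, mepenzolate at 7 h, vehicle at 25 h and mepenzolate at 25 h after dosing. Mepenzolate, a muscarinic receptor blocker, was given in PBS into the trachea by micropipette under chloral hydrate (500 mg/kg). The strain, sex and age of the mice, the dose of mepenzolate, the composition of the vehicle and the clock time of sampling are not given in the sources used here. Whether the 2 arrays of each group stand for 2 animals is not stated, so the spread behind each p-value may be technical. The study asked how mepenzolate lowers inflammation and oxidative stress in the lung. The 4 comparisons made here were 25 h against 7 h over both treatments, mepenzolate against vehicle at 7 h and at 25 h, and a test of whether that effect changed between the times.

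The unfolded protein response adjusts the folding capacity of the endoplasmic reticulum (ER). Unfolded proteins draw the chaperone BiP, encoded by Hspa5, away from the membrane sensors IRE1, PERK and ATF6. IRE1 splices Xbp1 mRNA into the form that encodes an active transcription factor, PERK favours translation of ATF4, and cleaved ATF6 enters the nucleus. These factors raise chaperones, enzymes of ER-associated degradation and, under prolonged stress, the pro-apoptotic factor CHOP, encoded by Ddit3. In lung the pathway is known for its part in secretory epithelium and in plasma cells. The single Xbp1 probe set does not separate the spliced from the unspliced mRNA.

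The promoters are shown because ATF6 and XBP1 act through known elements. The ER stress response element (ERSE) is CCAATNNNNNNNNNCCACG and ERSE-II is ATTGGNCCACG. Both were searched on both strands of RefSeq promoter windows (GRCm38.p6), which run from 250 bases before to 50 bases after a transcription start. RefSeq windows matched 8 of the 10 genes, all but Manf and Hyou1. ERSE was found in 2 of these 8, Hspa5 and Creld2, against 0.119% of all 32851 windows, and ERSE-II in 1, Herpud1, against 0.0365%. The 3 sites are printed on the strand of the gene, with the fixed letters of the element in capitals.
Hspa5, ERSE, chr2:34772005-34772063 (plus strand): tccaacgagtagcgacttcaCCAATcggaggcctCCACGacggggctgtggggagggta
Creld2, ERSE read on the opposite strand, chr15:88819500-88819558 (plus strand): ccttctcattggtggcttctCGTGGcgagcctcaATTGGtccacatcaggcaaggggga
Herpud1, ERSE-II, chr8:94386357-94386407 (plus strand): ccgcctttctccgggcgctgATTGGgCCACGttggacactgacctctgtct
The elements began 65, 126 and 52 bases before the start of Hspa5, Creld2 and Herpud1. The short motif CCACG, which lies inside both elements, was present in 6 of the 8 windows and in 32.8% of all windows. The element TGATGNAAT, bound by C/EBP and ATF proteins, was in 0 of the 8 and in 0.965% of all windows. These are matches of letters, and the arrays did not measure binding.

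Levels are RMA values on the log2 scale, so a difference of 1 is a doubling. RMA (robust multi-array average) subtracts background, brings arrays to 1 distribution and combines the probes of a transcript. The array medians ran from 6.70 to 6.77, and any pair of arrays correlated at r = 0.988 to 0.993 across probes, which are not independent replicates. The defining markers of alveolar type 2 cells were bright, with mean levels of 10.42 to 13.52 for 8 of 8 genes. Several marker lists stood apart on the second mepenzolate array at 7 h. There the liver list lay 0.81 above its mean over the 8 arrays (-0.23 to -0.05 on the other 7). The club and secretory cell list lay 0.67 below (-0.67, against -0.05 to 0.38), though its marker Scgb1a1 was 13.30 there (13.23 to 13.49 on the other 7). The ciliated cell list was also lowest there (-0.39, against -0.09 to 0.16). The cardiac muscle list was instead lowest on the first mepenzolate array at 7 h (-0.355, against -0.26 to 0.30). Results at 7 h are therefore given with and without the second mepenzolate array. For the members as a set and for several lists they are also given without the first.

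Herpud1 was lower at 25 h than at 7 h after dosing, with vehicle and with mepenzolate. It was the only member that passed the test in any of the 4 comparisons. Herpud1 encodes HERP, an ER membrane protein that helps to assemble the ubiquitin ligase complex of ER-associated degradation. In vehicle lungs its level was 10.83 and 10.70 at 7 h and 10.23 and 10.22 at 25 h. With mepenzolate it was 10.63 and 10.75 at 7 h and 10.37 and 10.36 at 25 h. The 4 arrays at 7 h thus all lay above the 4 arrays at 25 h, with no overlap.

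Over both treatments Herpud1 fell by 0.43 on the log2 scale (SE 0.058, 95% interval -0.57 to -0.30, n = 4 arrays per time), a 1.35-fold decrease. Its limma adjusted p was 0.0379, over 14953 genes. Limma passed 33 genes in this comparison, or 0.221% of those tested, and 27 of them were lower at 25 h (0.181%). A difference between times without overlap of arrays was found for 1 of the 10 members and for 6.69% of all genes tested (381 higher and 620 lower at 25 h). The size of the Herpud1 difference exceeded that of 99.16% of the genes tested.

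The size of the Herpud1 difference moved little between settings, but its call depended on them. With any 1 of the 8 arrays left out, the difference lay between -0.46 and -0.40 and the adjusted p between 0.0511 and 0.226, so the call ended each time. It also ended with no filter on dim genes (adjusted p = 0.0635) and with quantile normalization (-0.40, adjusted p = 0.0564), and was kept in the other 6 of 8 settings over all arrays. In bulk lung RNA, fewer cells of a type and less RNA per cell cannot be told apart.

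**Figure D1:**
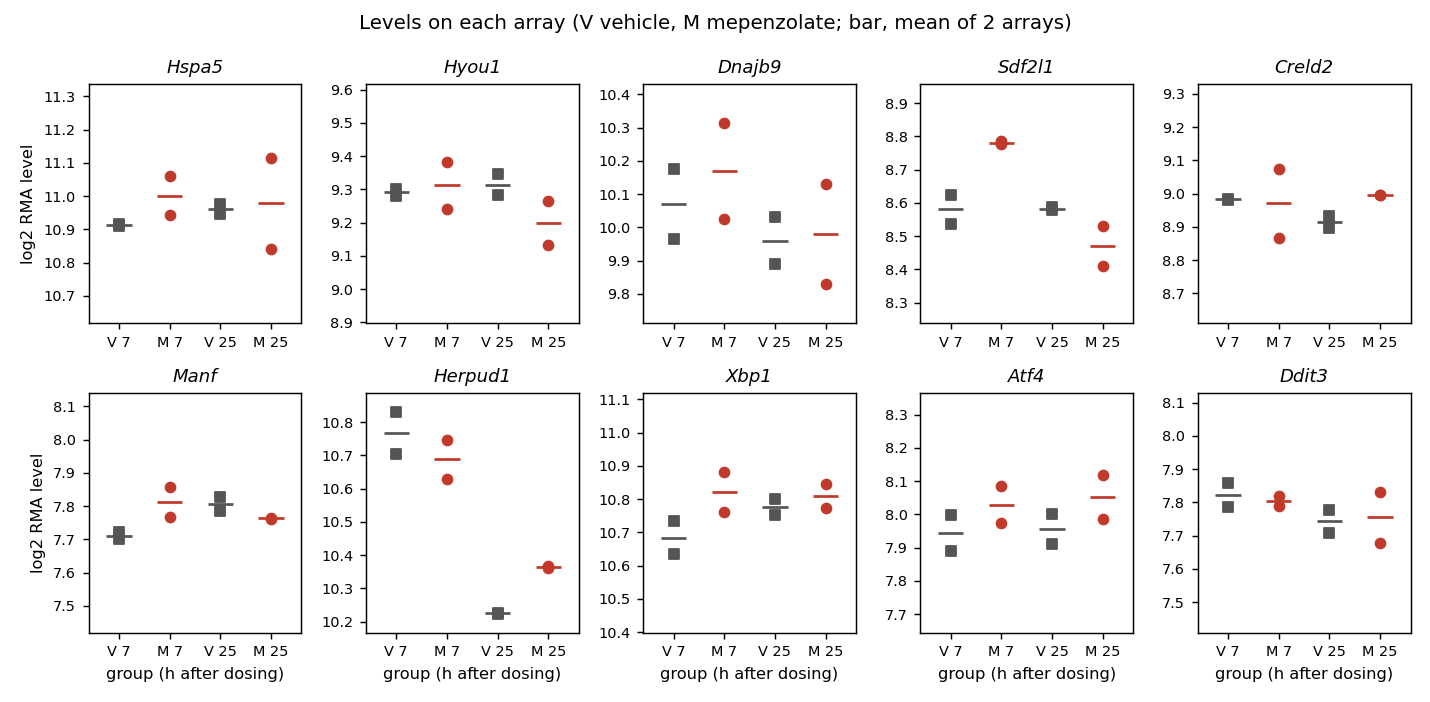
Log2 RMA level of each member (vertical axis, all panels spanning the same range) on each of the 2 arrays per group, with vehicle as grey squares, mepenzolate as red circles and the group mean as a bar. Herpud1 stands above 10.6 on all arrays at 7 h and below 10.4 on all arrays at 25 h, and Sdf2l1 is highest on the 2 mepenzolate arrays at 7 h.

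The Herpud1 decrease was 0.54 in vehicle lungs (from a mean of 10.77 to 10.23) and 0.32 with mepenzolate (from 10.69 to 10.36). The nearest arrays of the 2 times were 0.476 apart with vehicle and 0.261 apart with mepenzolate. The test of that difference between treatments gave 0.22 ± 0.12 (SE) with a limma adjusted p of 1 (unadjusted p = 0.0991), so a difference between treatments was not shown.

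Genes of the circadian clock moved with the same contrast of times. Of 11 tested clock genes 9 passed limma, 8 lower at 25 h and 1 higher, and 10 had no overlap between the 4 arrays at 7 h and the 4 at 25 h. The median of the 11 was -0.92 with all arrays, -0.91 without the second mepenzolate array at 7 h and -0.93 without the first. Which of the 11 passed limma depended on these arrays, while the median moved little. The repressor gene Per1 fell by 1.80 (SE 0.15, limma adjusted p = 0.00433) and Dbp, a transcription factor of clock output, fell by 1.75 (SE 0.19, adjusted p = 0.0101). Arntl, which encodes the activator BMAL1, rose by 1.48 (SE 0.091, adjusted p = 0.00255). The clock time of sampling is not given, so hours since dosing and clock time cannot be told apart here. The part of either in the Herpud1 difference was not tested.

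**Figure D2:**
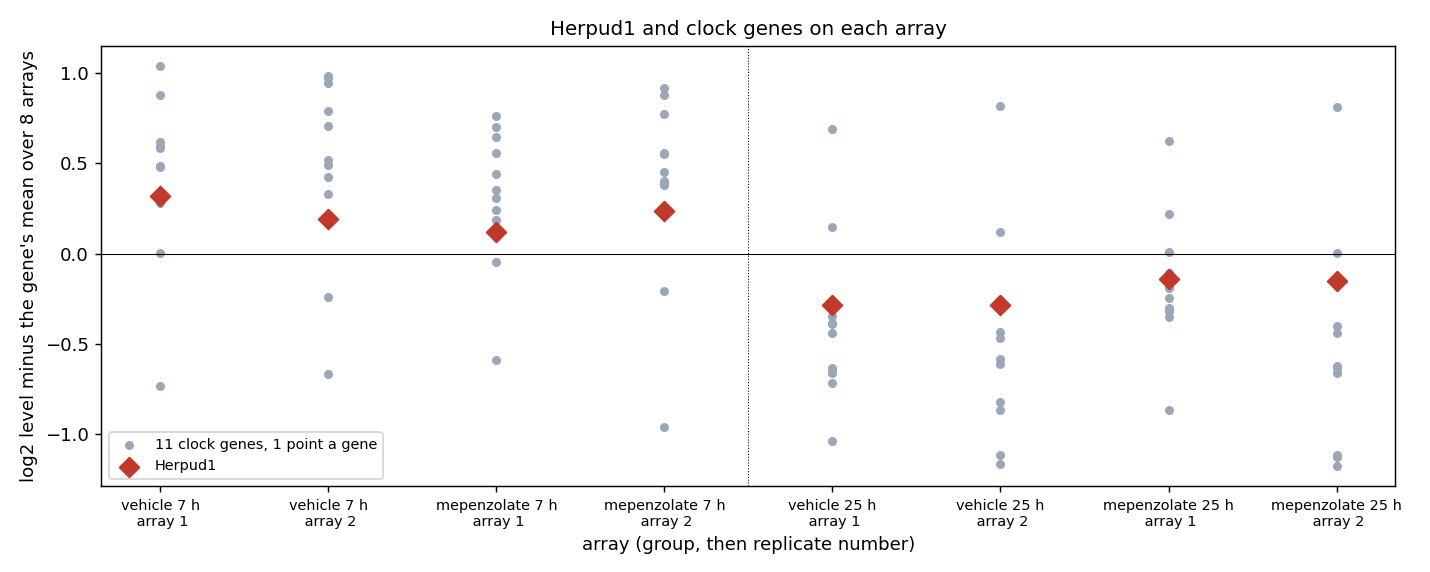
Log2 level minus the gene's own mean over the 8 arrays (vertical axis) for Herpud1 (red diamonds) and 11 clock genes (grey points) on each array (horizontal axis), with the dotted line between times. Herpud1 lies at 0.12 to 0.32 on the 4 arrays at 7 h and at -0.29 to -0.14 on the 4 arrays at 25 h.

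The genes whose profile over the 8 arrays was most like that of Herpud1 were picked after its values were seen, and are a description. They were Arrdc3 (Pearson r = 0.985), Syde2 (0.978), Tsc22d3 (0.977), Bhlhe41 (0.972), Sult1a1 (0.972), Btbd3 (0.963), Usp2 (0.957) and Gjc1 (0.956). Tsc22d3 encodes the glucocorticoid-induced protein GILZ and Bhlhe41 the clock repressor DEC2. Of these, Tsc22d3, Bhlhe41, Sult1a1 and Usp2 also passed limma for time, with decreases from 7 h to 25 h of 0.81, 0.92, 0.46 and 0.74. The arrays share the 2 times, which orders any pair of genes that differ between them.

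Among the chaperones and other luminal proteins of the ER no member passed between times. Hspa5, which encodes BiP, the main Hsp70 chaperone of the ER, had levels of 10.91 and 10.92 with vehicle and 11.06 and 10.94 with mepenzolate at 7 h. At 25 h it had 10.98 and 10.95 with vehicle and 11.12 and 10.84 with mepenzolate. The highest and the lowest of all 8 values were thus the 2 mepenzolate arrays at 25 h, which spanned the arrays of every other group. Its difference between times was 0.01 ± 0.07 (SE, 95% interval -0.15 to 0.18) and did not pass (limma adjusted p = 0.984).

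The profile most like Hspa5 over the 8 arrays belonged to Arf4, a small GTPase of the Golgi (r = 0.965), followed by Dab2 (0.965), Eny2 (0.959), Zfp948 (0.953), Zeb2 (0.948), Gchfr (0.943), Igsf10 (0.939) and Etv6 (0.936). None of these 8 passed limma for time (smallest adjusted p = 0.959). Hspa5 itself had an SD of 0.087 over the 8 arrays, so these correlations rest on small differences.

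Hyou1 encodes GRP170, a nucleotide exchange factor for BiP, and ranged from 9.13 to 9.38 over the 8 arrays. Its lowest array was the second of mepenzolate at 25 h and its highest the first of mepenzolate at 7 h. Between times it differed by -0.04 ± 0.06 (SE).

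Dnajb9 encodes ERdj4, a J-domain cochaperone of BiP that also restrains IRE1. Its levels at 7 h were 10.18 and 9.96 with vehicle and 10.31 and 10.02 with mepenzolate, and at 25 h 9.89 and 10.03 with vehicle and 10.13 and 9.83 with mepenzolate. Arrays of a group were as far apart as 0.30, so all 4 groups overlapped. The difference between times was -0.15 ± 0.10 (SE, 95% interval -0.38 to 0.08), the widest interval among the members. With 1 array left out it lay between -0.225 (without the first mepenzolate array at 25 h) and -0.0745 (without the second), and did not pass.

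Sdf2l1 encodes a luminal protein that works with BiP and ERdj cochaperones against protein aggregation. It was highest on the 2 mepenzolate arrays at 7 h. There its level was 8.78 and 8.79, against 8.54 and 8.63 in vehicle lungs at 7 h. At 25 h it was 8.53 and 8.41 with mepenzolate and 8.59 and 8.58 in vehicle lungs. The mepenzolate arrays therefore lay above vehicle at 7 h and below vehicle at 25 h, without overlap at either time.

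For Sdf2l1 mepenzolate minus vehicle was 0.20 ± 0.08 (SE) at 7 h and -0.11 ± 0.08 at 25 h, and the 2 effects differed by -0.31 ± 0.11. By limma the unadjusted p-values of these were 0.0352, 0.192 and 0.0233. None passed after adjustment over all genes (limma adjusted p = 1, 0.979 and 1). Over both treatments the difference between times was -0.16 ± 0.06 (unadjusted p = 0.0246, adjusted p = 0.438). Without the second mepenzolate array at 7 h, whose liver, club and ciliated cell markers stood apart, the 7 h difference was 0.20. The 25 h difference was -0.17 without the first mepenzolate array of that time and -0.0541 without the second.

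Creld2 and Manf encode small proteins of the ER lumen that are induced by ER stress, and Manf is also secreted. Creld2 ranged from 8.87 to 9.07, with both extremes with mepenzolate at 7 h, and differed by -0.02 ± 0.06 between times. Manf was 7.72 and 7.70 with vehicle and 7.86 and 7.77 with mepenzolate at 7 h, and 7.79 and 7.83 with vehicle and 7.77 and 7.76 with mepenzolate at 25 h. Manf stood higher with mepenzolate at 7 h and lower at 25 h without overlap, by 0.10 ± 0.07 and -0.04 ± 0.07, and neither passed (adjusted p = 1 and 0.980).

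None of the 3 transcription factor genes passed between times. Xbp1 was 10.73 and 10.64 with vehicle and 10.88 and 10.76 with mepenzolate at 7 h, and 10.80 and 10.75 with vehicle and 10.85 and 10.77 with mepenzolate at 25 h. The vehicle arrays at 7 h were its lowest, and the 7 h difference was 0.14 ± 0.08 (SE, 95% interval -0.06 to 0.33), which did not pass (limma adjusted p = 1). Atf4 ranged from 7.89 to 8.12, and Ddit3 from 7.68 to 7.86. Their differences between times were 0.02 ± 0.06 and -0.06 ± 0.06 (limma adjusted p = 0.966 and 0.848).

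Mepenzolate itself moved no member past the threshold. At 7 h limma passed 0 of 10 members, and Sdf2l1 was the only 1 of them at an unadjusted p under 0.05. Among all genes 0 passed (0%), with 357 at an unadjusted p under 0.05. The members' median difference was 0.09, with 7 higher and 3 lower. Over all genes tested the median was -0.01, with 43.6% above 0. Arrays of the 2 groups did not overlap for 4 members, all higher with mepenzolate (Hspa5, Xbp1, Sdf2l1 and Manf). The same held for 23.7% of all 14953 genes tested, 1235 of them higher with mepenzolate and 2314 lower. The 95% intervals of the 10 members reached from -0.27 (Herpud1) to 0.42 (Dnajb9), so shifts up to 1.34-fold lie within the error of 2 arrays against 2. Without the second mepenzolate array at 7 h, 8 members stood higher and 2 lower, with a median of 0.14 against 0.00458 over all genes tested, and 0 passed. Without it Hspa5 stood at 0.15, Manf at 0.15, Xbp1 at 0.20 and Dnajb9 at 0.24. Without the first mepenzolate array at 7 h instead, the same genes stood at 0.0297, 0.0557, 0.0763 and -0.0457, and 5 members were higher and 5 lower (median 0.0139, against -0.0371 over all genes tested), with 0 passing. The balance of higher and lower members at 7 h thus turned on which of the 2 mepenzolate arrays was read. Club and secretory cell markers stood lower with mepenzolate at 7 h in 9 of 10 cases (median -0.64, 6 at an unadjusted p under 0.05, 0 passing limma). Scgb1a1 and Cyp2f2 of that list stood at 0.02 and -0.07, so the median does not stand for every marker. The list was also lower in 9 of 10 without the second array (median -0.36) and without the first (median -0.84). Ciliated cell markers were lower in 7 of 8 (median -0.20). They were lower in 3 of 8 without the second array (median 0.07) and in 8 of 8 without the first (median -0.45). The part of these markers in the members' differences was not tested.

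At 25 h, the time that the series' design text names, limma passed 0 of 10 members, with 0 at an unadjusted p under 0.05. Among all genes 0 passed (0%), with 599 at an unadjusted p under 0.05. The median difference was 0.02 over the members and -0.02 over all genes tested. Groups did not overlap for 5 members, 2 higher (Herpud1 and Creld2) and 3 lower (Sdf2l1, Manf and Hyou1), and for 36.6% of all genes (2124 higher, 3343 lower). Herpud1 stood at 0.14 ± 0.08 (SE, adjusted p = 0.979). The intervals of the members reached from -0.31 (Hyou1) to 0.34 (Dnajb9). The test of whether the mepenzolate effect changed between times passed 0 members and 0 of 14953 genes (0%, limma), with 1 member and 400 genes at an unadjusted p under 0.05.

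**Figure D3:**
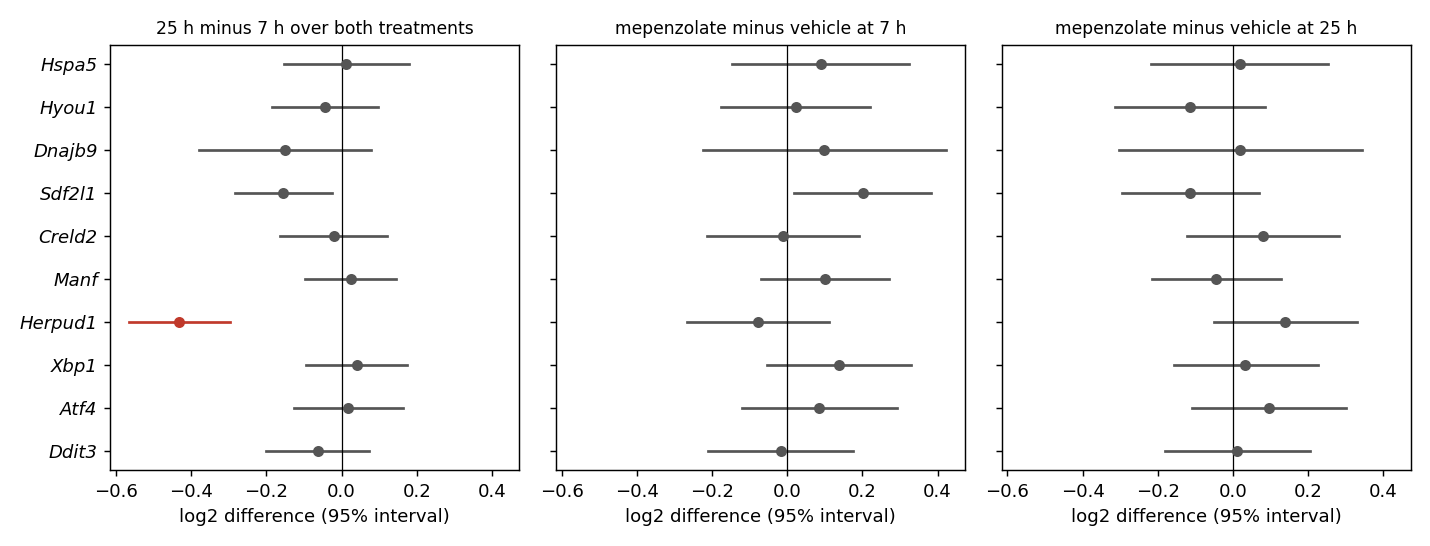
Log2 difference of each member with its 95% interval (horizontal axis) in 3 comparisons, with red marking an adjusted p under 0.05. Only Herpud1 between times is red, at -0.43, and the intervals of all members reach or cross 0 under mepenzolate except that of Sdf2l1 at 7 h (0.02 to 0.38), which did not pass after adjustment.

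Other genes of the pathway were read from 5 lists by role, which held 78 genes, of which 73 were tested. Between times 0 of the 73 passed limma, 24 were higher and 49 lower at 25 h, and the median was -0.04, against 0.00 over all genes tested (50.7% above 0). With mepenzolate 0 of 73 passed at 7 h (33 higher, 40 lower) and 0 at 25 h (36 higher, 37 lower). Of all genes tested, 43.6% lay above 0 with mepenzolate at 7 h and 41.3% at 25 h. Without the second mepenzolate array at 7 h, a choice made after its markers were seen, 0 passed, with 53 higher and 20 lower at 7 h (median 0.05, against -0.01 with all arrays) and 52 lower between times (median -0.06). Without the first mepenzolate array at 7 h, 24 were higher and 49 lower at 7 h (median -0.042, against -0.0371 over all genes tested). Between times 39 were then lower (median -0.0128, against 0.00476 over all genes tested). The balance of higher and lower genes in these lists at 7 h thus also turned on which mepenzolate array was read.

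The chaperones and folding enzymes held 15 lower and 5 higher genes of 20 at 25 h against 7 h (median -0.06). Without the second mepenzolate array at 7 h 16 were lower (median -0.08), and without the first 14 (median -0.04). Hsp90b1, which encodes the Hsp90 chaperone of the ER, stood at -0.15 ± 0.06 (SE, limma adjusted p = 0.448), with levels of 11.44 to 11.60 at 7 h and 11.28 to 11.40 at 25 h. The lectin chaperone calnexin, Canx, stood at -0.12 ± 0.05 and the disulphide isomerase gene Pdia4 at -0.13 ± 0.06. Hsp90b1 and Canx had no overlap between times, and none of the 3 passed. In each list the 3 genes named were those with the largest moderated t for time, so a lack of overlap was favoured by that choice.

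Among targets of PERK and ATF4, 15 of 20 were lower (median -0.04). Without the second mepenzolate array at 7 h 14 were lower (median -0.062), and without the first 12 (median -0.0344). Sesn2, a restrainer of mTORC1, stood at -0.26 ± 0.07 (limma adjusted p = 0.230) and Slc7a5, a transporter of large neutral amino acids, at -0.28 ± 0.12. Nupr1, a stress-induced chromatin protein gene, stood higher at 0.21 ± 0.06 (adjusted p = 0.270). Sesn2 was 7.47 to 7.64 at 7 h and 7.13 to 7.39 at 25 h, and Nupr1 9.88 to 10.02 and 10.10 to 10.25, both without overlap and neither passing. Their choice by moderated t for time favoured this separation too.

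Genes of ER-associated degradation, the pathway in which HERP works, held 8 lower and 5 higher of 13 (median -0.03, range -0.08 to 0.13). Without the second mepenzolate array at 7 h 9 were lower (median -0.0277), and without the first 6 (median 0.00093). Herpud2, the paralogue of Herpud1, stood at -0.08 ± 0.05 (limma adjusted p = 0.764), without overlap between times. Selenos, which encodes a membrane selenoprotein of the degradation complex, stood at 0.13 ± 0.06, and Derl2, a derlin of that complex, at 0.09 ± 0.08. The sensors and their processing enzymes held 4 lower and 5 higher of 9 (median 0.01), with Creb3l1 at 0.21 ± 0.10, Creb3 at -0.12 ± 0.07 and Atf6 at -0.09 ± 0.06. This balance turned on the array left out. Without the second mepenzolate array at 7 h 6 of the 9 were lower (median -0.0436), and without the first 3 (median 0.0407).

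Translocation and vesicle transport genes held 7 lower and 4 higher of 11 (median -0.03). Without the second mepenzolate array at 7 h 7 were lower (median -0.0603), and without the first 4 (median 0.00292). Sec61b, a subunit of the translocon, stood at 0.36 ± 0.13, Kdelr3, a receptor that returns ER proteins from the Golgi, at -0.36 ± 0.15, and Sec63 at -0.10 ± 0.06. Kdelr3 ranged from 8.07 to 8.80 within mepenzolate lungs at 25 h, and Sec61b from 8.16 to 8.65 there.

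**Figure D4:**
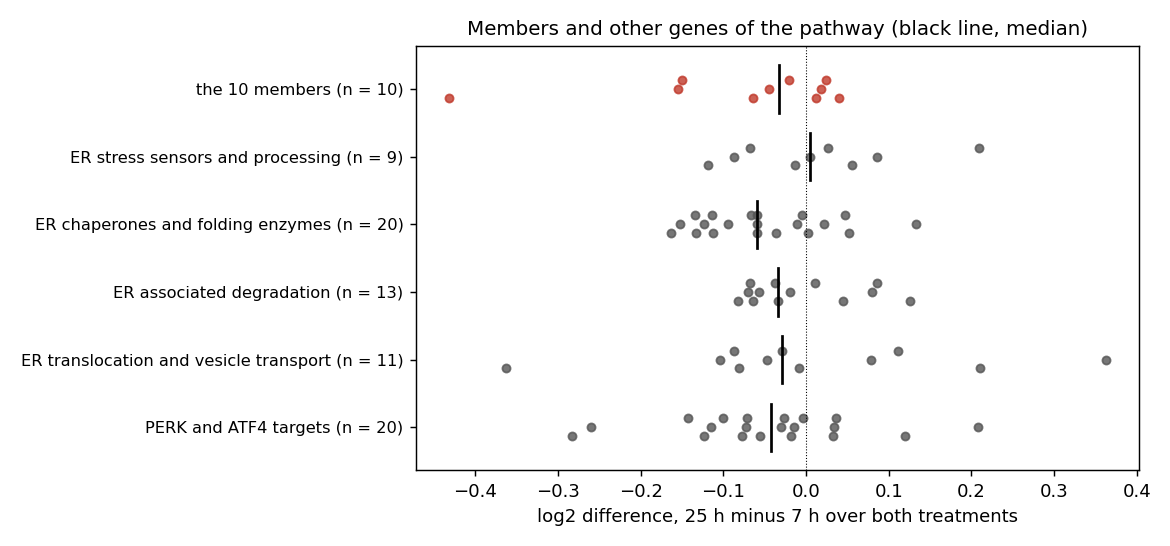
Log2 difference between 25 h and 7 h over both treatments (horizontal axis) for the 10 members (red) and for the 73 tested genes of 5 role lists (grey), 1 point a gene, with the median as a black line. Herpud1 is the leftmost red point at -0.43, and medians of the lists lie between -0.06 and 0.01.

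Heat shock genes of the cytosol and mitochondria, chaperones that are not part of the ER response, were read for comparison. Of 10 tested, 1 passed limma between times, Hspb1, which encodes the small heat shock protein HSP27 and fell by 0.94 (SE 0.099, adjusted p = 0.0101). Its levels were 10.26 to 10.68 at 7 h and 9.37 to 9.62 at 25 h. None of the other 9 stood higher at 25 h and none passed, with Hspa8 at 0.00 and a median of the 10 at -0.04. Over all genes tested, 50.7% lay above 0. Without the first mepenzolate array at 7 h, 3 of the 10 heat shock genes stood higher and 7 lower (median -0.0159). Without the second 0 stood higher (median -0.0755).

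The markers of secretory cell types were read beside the members, and 0 of the plasma cell, alveolar type 2 or club and secretory cell markers passed limma between times. Plasma cell markers stood higher at 25 h in 7 of 8 cases (median 0.16), and Herpud1 stood lower. Their part in the Herpud1 difference was not tested. Alveolar type 2 markers differed between times by -0.08 to 0.00. Club and secretory cell markers differed by -0.88 to 0.47, with 6 of 10 higher at 25 h (median 0.12) and 2 at an unadjusted p under 0.05. Without the second mepenzolate array at 7 h, 1 of these 10 passed, lower at 25 h, and the median was 0.0187. Averaged over the 10 members, the level relative to the mean of all arrays was -0.02 and 0.04 with vehicle and 0.02 and 0.12 with mepenzolate at 7 h, and -0.09 to 0.03 over the 4 arrays at 25 h. Without Herpud1 that average was -0.04 to 0.12 at 7 h and -0.09 to 0.05 at 25 h, with overlap.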

How the data were processed

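Lung RNA from 8 samples was hybridised to Affymetrix mouse gene arrays. The authors deposited log2 levels of 34760 probe sets, made with RMA per the submitters' processing notes, which give no version here. With arrays, the number of arrays limits the precision.

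Groups and replicate numbers came from the sample titles. Of the probe sets, 21640 had 1 gene symbol, 1321 several and 11799 were unnamed here. The brightest probe set per gene by mean over 8 arrays was used. Genes at or above the 25th percentile of mean level (5.93) were tested with limma 3.58.1 (R 4.3.3) on all 8 arrays, a mean for each group and Benjamini-Hochberg adjustment over 14953 genes at 0.05. The data.table package (version 1.17.8) read the values. The comparisons share arrays. The members and lists were chosen with earlier results of these data known. Named besides members were pathway genes that passed or, where none did, the 3 with the largest moderated t for time in each list, and the 8 genes most correlated with Hspa5; the 8 for Herpud1 and the values of clock and heat shock genes were added later.

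The fit was tested on simulated data with known changes between times in 14953 genes, where it recovered 18% of genes changed by log2 0.25, 86% at 0.5 and 100% at 1 and 2, with 16 false among 168 calls. Alternatives were a replicate block, other filters, normalizations, variance models and weights per array, averaging the probe sets of a gene, and leaving out each array. Proteins were not analysed here.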

Additional observations from a re-analysis of the deposited data

How the results depend on the processing

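The number of genes that passed between times was 33, and 73 with a replicate block, 72 with the filter at the median level and 123 with an intensity trend and robust estimation. Leaving out 1 array gave 11 to 34 genes and 0 members. No filter and quantile normalization also gave 0 members. For mepenzolate at 25 h, 1 gene passed with the replicate block and 0 to 1 with 1 array left out, against 0 to 2 at 7 h and 0 to 2 for the difference between times. A lone array of a group is then assumed to vary like the others. Arrays of the same replicate number deviated together in 3 of 6 pairs of groups, those among vehicle at 7 h and mepenzolate at 7 h and 25 h (r = 0.194 to 0.396), and not in the 3 with vehicle at 25 h (-0.021 to 0.027). The numbers were therefore not taken to pair the arrays over all groups. Under the block Herpud1 had adjusted p = 0.0357 and no member's call changed.

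Over the settings with all arrays, 311 of 320 member differences kept direction and side of the threshold. With 1 array left out, 30 of 320 changed sign. Much of this agreement was fixed in advance. The replicate block, filters, variance model, array weights and averaging of probe sets left the members' estimates as they were, so no sign could change. Leaving out an array of 1 time also cannot move the mepenzolate difference at the other time. These counts therefore do not measure robustness. Values near 0 changed sign. Quantile normalization gave Creld2 0.0011 between times, Ddit3 0.0119 and Creld2 0.0103 at 7 h and Atf4 -0.00096 for the difference between times. Median centring gave Hspa5 -0.0014 between times, and Ddit3 0.0054 and Creld2 0.0105 at 7 h. With 1 array left out, between times Hspa5 ran from -0.0558 to 0.0807, Atf4 from -0.0146 to 0.0511 and Creld2 from -0.0729 to 0.0308. For mepenzolate at 7 h Ddit3 ran from -0.0526 to 0.0185, Dnajb9 from -0.0457 to 0.244, Creld2 from -0.116 to 0.0919 and Hyou1 from -0.0483 to 0.0916. At 25 h Hspa5 ran from -0.119 to 0.154, Ddit3 from -0.0648 to 0.0871, Xbp1 from -0.0030 to 0.0695 and Dnajb9 from -0.13 to 0.17. For the difference between times Hspa5 ran from -0.208 to 0.0654, Ddit3 from -0.0477 to 0.104, Atf4 from -0.054 to 0.0775, Dnajb9 from -0.229 to 0.0713 and Creld2 from -0.0107 to 0.197. The cause of these changes was not tested.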

Other observations

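Within each of the 4 groups, the array numbered 1 was higher than the array numbered 2 for Atf4 (by 0.09 to 0.13) and for Xbp1 (by 0.05 to 0.12). These 2 genes had the highest correlation of any pair of members over the 8 arrays (r = 0.873), and Hspa5 correlated with Atf4 at 0.750. Over all genes, deviations of same-numbered arrays correlated at 0.194 to 0.396 among vehicle at 7 h and mepenzolate at 7 h and 25 h, and at -0.021 to 0.027 with vehicle at 25 h. The labels give no order to the numbers. The first array was higher for 9 of 10 members with mepenzolate at 25 h, 7 with mepenzolate at 7 h, 7 with vehicle at 7 h and 5 with vehicle at 25 h. The shares of all genes tested were 56.3%, 61.8%, 51.2% and 48.6%.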
